A study of Mus musculus with 12 samples.

Results

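A set of 10 genes known to be induced by glucocorticoid hormone was examined in the pituitary of the pregnant mouse: Fkbp5, Tsc22d3, Sgk1, Zbtb16, Cdkn1a, Mt1, Mt2, Map3k6, Klf9 and Errfi1. The rule that takes them uses the gene symbol in the array annotation and no measured value, although earlier results of these data were known when the set was chosen, and 15 of the 45281 probes on the array bear one of these symbols. A probe was kept when its detection p-value, the scanner software's test against negative control beads, was under 0.05 on at least 4 of 12 arrays. This left 14 of the 15 probes and all 10 genes, among 18626 kept probes in all. The probe that was dropped was one of 3 for Tsc22d3 and was detected on 0 arrays. Where a gene had several kept probes, the one with the highest mean leads its description.

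Each array carried the whole pituitary RNA of 1 C57BL/6J female. The pregnant group comprised 8 females mated with males of the same strain and taken at e15.5, and the non-pregnant group comprised 4 virgin females. The methods of the study place all of them in early adulthood, drawn from several litters and allocated at random. No transgene or drug treatment was named there. Pregnant females were killed by terminal anaesthesia, and how the virgin females were killed was not stated. Which litter an animal came from was not stated. The anterior, intermediate and posterior lobes were not separated, and in such bulk tissue fewer cells of a type and less RNA per cell cannot be told apart.

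Glucocorticoids (corticosterone in mice) enter cells and bind the glucocorticoid receptor, which is held in the cytoplasm by Hsp90 and its co-chaperones and then moves to the nucleus to bind DNA as a dimer. Genes switched on in this way include brakes on the hormone's own action, inhibitors of inflammation, growth and the cell cycle, and metal-binding proteins. In the pituitary the hormone also feeds back on corticotrophs, the cells that make Pomc, the precursor of ACTH, and circulating corticosterone is known to rise in late mouse pregnancy.

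The hormone genes Pomc, Gh, Prl, Tshb and Cga were detected on all 12 arrays. The median raw intensity lay between 151.1 and 179.6 on pregnant arrays and between 144.8 and 147.6 on non-pregnant arrays, and 17217 to 18392 probes were detected on a pregnant array against 17789 to 18572 on a non-pregnant one. Non-pregnant replicate 4 stood apart from its group, in that its best partner over all kept probes was pregnant replicate 8 (Pearson r = 0.984). All levels below are log2 intensities after background correction and normalisation between arrays, and changes are pregnant minus non-pregnant.

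The first question was how the members differed between pregnant and non-pregnant females. Fkbp5, Cdkn1a, Mt2 and Map3k6 were higher in pregnant females, by 1.40-fold to 2.34-fold, whereas Tsc22d3, Sgk1, Zbtb16, Mt1, Klf9 and Errfi1 did not pass the test. Thus 4 of 10 genes were called higher and 0 lower (limma, adjusted p under 0.05 and a log2 change of at least 0.32 either way), beside 1.22% of all kept probes called higher and 1.1% called lower. Map3k6, the upper end of that range, is counted here although its probes met the detection filter only through the pregnant arrays. With no background correction its log2 change was 0.50. At an unadjusted p under 0.05 in limma, 5 of the 10 lead probes differed, 4 upwards and 1 downwards (Klf9), beside 17% of all kept probes. The median change of the lead probes was 0.12, with 6 above 0 and 4 below, while the median over all kept probes was 0.00. On 4 of the 10 lead probes, those of the called genes, the groups did not overlap, beside 1.51% of all kept probes with every pregnant array above every non-pregnant one. The members did not move together.

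**Figure D1:**
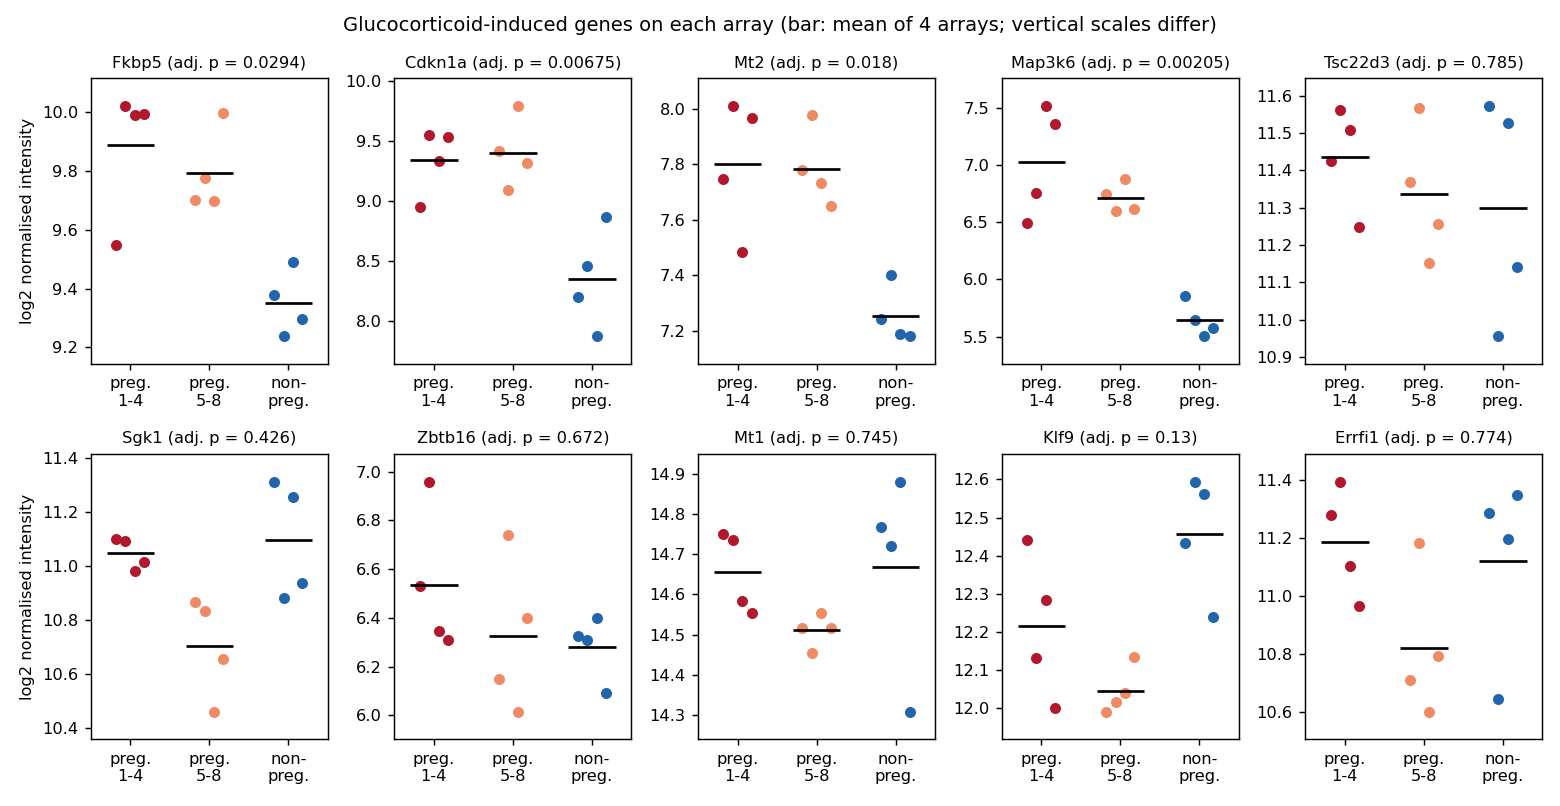
Log2 normalised intensity (vertical axis, scales differ) of the lead probe of each member on every array, for pregnant replicates 1 to 4, pregnant replicates 5 to 8 and non-pregnant females; points are arrays and bars are means of 4 arrays. In the first 4 panels (Fkbp5, Cdkn1a, Mt2 and Map3k6) every pregnant array lies above every non-pregnant one, and in the other 6 panels the groups overlap.

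Among the genes that act on the receptor itself, Fkbp5 encodes an Hsp90 co-chaperone that lowers the receptor's affinity for hormone, and so acts as a feedback brake. Its level ran from 9.55 through a median of 9.88 to 10.02 on pregnant arrays, against 9.38, 9.24, 9.49 and 9.30 on non-pregnant replicates 1 to 4. All 8 pregnant arrays lay above all 4 non-pregnant ones, although pregnant replicate 1, the lowest, stood close to non-pregnant replicate 3. The mean was 9.84 ± 0.18 (SD, n = 8) in pregnant females and 9.35 ± 0.11 (SD, n = 4) in virgin females, a change of 0.49 ± 0.11 (SE), or 1.40-fold (95% interval 1.19 to 1.65; adjusted p = 0.0294). This call ended when any 1 of pregnant replicate 4 or 8 or non-pregnant replicate 1, 2 or 3 was left out, with an adjusted p of up to 0.0834.

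Cdkn1a encodes the cyclin-dependent kinase inhibitor p21, which halts the cell cycle and is also a classical target of p53. It was 2.03-fold higher in pregnant females (95% interval 1.57 to 2.64). Pregnant arrays ran from 8.95 through a median of 9.37 to 9.79, against 8.19, 8.46, 7.87 and 8.87 on non-pregnant replicates 1 to 4. The groups did not overlap, but non-pregnant replicate 4, the array that stood apart, came within reach of pregnant replicate 1. The mean was 9.37 ± 0.27 (SD, n = 8) in pregnant females and 8.35 ± 0.42 (SD, n = 4) in virgin females (change 1.02 ± 0.18, SE, adjusted p = 0.00675). Both dimmer probes of Cdkn1a gave smaller changes, of 0.70 ± 0.18 (adjusted p = 0.0543) and 0.60 ± 0.24 (adjusted p = 0.215), and neither passed in the main fit. The first of these passed in 8 of 13 alternative settings, and the second in 1 of 11, with array weights. The dimmest of them was detected on all 8 pregnant arrays and on 2 of 4 non-pregnant ones.

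A promoter of Cdkn1a is shown because the gene is induced by more than 1 route. There were 2 annotated Cdkn1a windows, and 1 of them held no core of a p53 element. The window shown was chosen because it held such a core. The window, taken from RefSeq (GRCm38.p6), spans 250 bases before to 50 bases after the transcription start at chr17:29090729-29091028 on the plus strand, and capitals mark the core of a p53 element (CATGNNNNNNCATG, either strand).
Cdkn1a: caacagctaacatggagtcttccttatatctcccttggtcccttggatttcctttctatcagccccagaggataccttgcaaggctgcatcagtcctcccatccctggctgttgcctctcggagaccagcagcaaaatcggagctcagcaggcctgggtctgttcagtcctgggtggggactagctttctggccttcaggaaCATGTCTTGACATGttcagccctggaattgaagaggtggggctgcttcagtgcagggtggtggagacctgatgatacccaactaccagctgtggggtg
This core was found in 0.712% of all 32851 promoter windows of that length. A full glucocorticoid response element (AGAACANNNTGTTC, either strand) was not among the letters of this window. The match describes the sequence only and says nothing of binding.

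Mt1 and Mt2, the metallothioneins, bind zinc and copper and are induced by metals through the factor MTF1 as well as by glucocorticoids. The 2 genes lie side by side on chromosome 8, with window starts 6471 bases apart. Mt2 was higher in pregnant females, and Mt1 did not pass the test. Mt2 ran from 7.48 through a median of 7.76 to 8.01 on pregnant arrays, against 7.24, 7.40, 7.19 and 7.18 on non-pregnant replicates 1 to 4. Every pregnant array was above every non-pregnant one, with the smallest gap between pregnant replicate 3 and non-pregnant replicate 2. Its mean was 7.79 ± 0.18 (SD, n = 8) in pregnant females and 7.25 ± 0.10 (SD, n = 4) in virgin females, a change of 0.54 ± 0.11 (SE), or 1.45-fold (95% interval 1.24 to 1.71; adjusted p = 0.0180). Leaving out non-pregnant replicate 1 or 3 ended the call (adjusted p up to 0.0783), and the change was 0.32 with no background correction, just under the size required for a call.

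Mt1, in contrast, overlapped between the groups. It ran from 14.45 through a median of 14.55 to 14.75 on pregnant arrays, against 14.77, 14.72, 14.88 and 14.31 on non-pregnant replicates 1 to 4. Non-pregnant replicate 4 was the lowest of all 12 arrays and non-pregnant replicate 3 the highest. The change was -0.09 ± 0.11 (SE, 95% interval -0.32 to 0.15; adjusted p = 0.745), an interval that leaves room for a small difference either way. The Mt1 probe was bright, its mean signal over the 12 arrays being 52.6% of the highest signal of any probe on any array. The difference between the changes of Mt2 and Mt1 was not tested.

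The promoter windows of both metallothioneins are given for comparison, from RefSeq (GRCm38.p6), at chr8:94172368-94172667 for Mt2 and chr8:94178839-94179138 for Mt1, both on the plus strand. Capitals mark the core of the metal response element (TGCACNC or TGCGCNC, either strand).
Mt2: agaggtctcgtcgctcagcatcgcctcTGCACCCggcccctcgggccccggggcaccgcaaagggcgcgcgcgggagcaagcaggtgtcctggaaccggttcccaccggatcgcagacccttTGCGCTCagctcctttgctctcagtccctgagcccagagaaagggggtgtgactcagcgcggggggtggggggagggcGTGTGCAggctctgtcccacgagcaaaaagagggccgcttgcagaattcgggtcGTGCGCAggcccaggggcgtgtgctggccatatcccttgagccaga
Mt1: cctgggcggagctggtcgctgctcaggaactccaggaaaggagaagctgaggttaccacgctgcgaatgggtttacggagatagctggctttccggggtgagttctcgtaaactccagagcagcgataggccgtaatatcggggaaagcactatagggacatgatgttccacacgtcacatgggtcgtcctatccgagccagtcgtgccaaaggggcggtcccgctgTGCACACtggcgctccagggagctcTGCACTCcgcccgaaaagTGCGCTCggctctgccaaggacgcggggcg
There were 4 such cores in the Mt2 window and 3 in that of Mt1, and 25.7% of all promoter windows held at least 1 and 1.97% held 3 or more. Neither window held the hexamer of the glucocorticoid response element (AGAACA, either strand), which was found in 19.0% of all windows.

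Map3k6, which encodes a stress-activated MAP kinase kinase kinase, was also higher in pregnant females. It ran from 6.49 through a median of 6.75 to 7.52 on pregnant arrays, against 5.86, 5.65, 5.50 and 5.58 on non-pregnant replicates 1 to 4. All 8 pregnant arrays were clearly above the non-pregnant ones, and pregnant replicates 3 and 4 were the highest. The mean was 6.87 ± 0.37 (SD, n = 8) in pregnant females and 5.65 ± 0.15 (SD, n = 4) in virgin females, a change of 1.22 ± 0.18 (SE), or 2.34-fold (95% interval 1.80 to 3.03; adjusted p = 0.00205). The second Map3k6 probe also passed, with a change of 0.64 ± 0.14 (adjusted p = 0.0223).

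The size of the Map3k6 change depends on how faint signal is treated, and the gene met the detection filter only through the pregnant arrays. Each of its probes was detected on all 8 pregnant arrays but on 1 of 4 non-pregnant ones, and the raw intensity of the lead probe was 222.3 to 307.8 in pregnant and 155.4 to 169.6 in non-pregnant females, while the median of a whole array was 151.1 to 179.6 in pregnant and 144.8 to 147.6 in non-pregnant females. With no background correction the lead probe still passed, but with a change of 0.50 (adjusted p = 0.00819). The second probe did not pass in that setting, at 0.24 (adjusted p = 0.0649). The order of Map3k6 and Cdkn1a turned with it: Cdkn1a gave 0.79 there, above Map3k6, and likewise 0.80 against 0.51 in the authors' processed table and 0.95 against 0.85 with a normexp offset of 50.

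**Figure D2:**
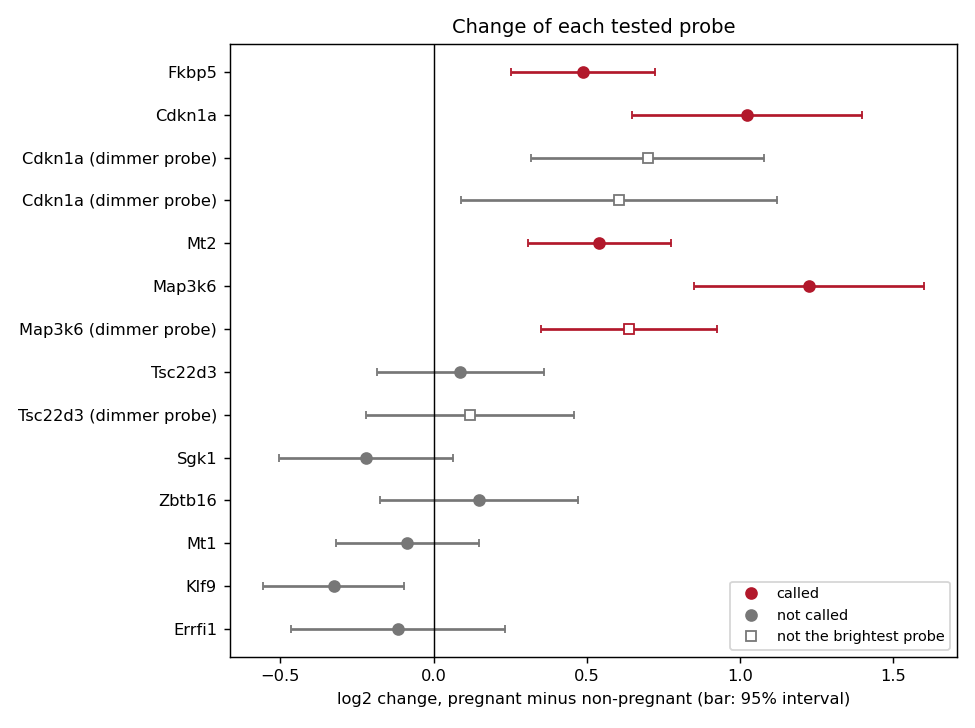
Log2 change (horizontal axis, pregnant minus non-pregnant) of each kept member probe with its 95% interval from limma; red marks called probes, grey those not called, and open squares are dimmer probes of the same gene. Called changes run from 0.49 for Fkbp5 to 1.22 for Map3k6, all to the right of 0.

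Of the transcriptional regulators, Tsc22d3 encodes GILZ, a leucine zipper protein that restrains inflammatory signalling and is among the most widely used readouts of receptor activity. It ran from 11.15 through a median of 11.40 to 11.57 on pregnant arrays, against 11.57, 10.96, 11.53 and 11.14 on non-pregnant replicates 1 to 4. The non-pregnant arrays spanned the whole pregnant range, with replicates 1 and 3 high and replicates 2 and 4 low. The change was 0.09 ± 0.13 (SE, 95% interval -0.19 to 0.36; adjusted p = 0.785). A second kept probe, detected on 2 pregnant and 2 non-pregnant arrays, gave 0.12 ± 0.16 (adjusted p = 0.761).

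Zbtb16 encodes PLZF, a zinc finger repressor of transcription. It ran from 6.02 through a median of 6.37 to 6.96 on pregnant arrays, against 6.33, 6.31, 6.40 and 6.09 on non-pregnant replicates 1 to 4. Pregnant replicates 2 and 6 were the highest and pregnant replicate 7 the lowest, so the non-pregnant arrays fell inside the pregnant range. The change was 0.15 ± 0.15 (SE, 95% interval -0.17 to 0.47; adjusted p = 0.672).

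Klf9, a Krüppel-like factor that also responds to thyroid hormone, was the member with the most negative change. It ran from 11.99 through a median of 12.09 to 12.44 on pregnant arrays, against 12.43, 12.59, 12.56 and 12.24 on non-pregnant replicates 1 to 4. On 6 of 8 pregnant arrays the level was below that of every non-pregnant array, whereas pregnant replicates 1 and 3 overlapped with the non-pregnant group. The change was -0.33 ± 0.11 (SE, 95% interval -0.56 to -0.10), which did not pass over all probes (adjusted p = 0.130). It passed in 1 alternative, with arrays weighted by their quality (change -0.40, adjusted p = 0.0215).

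Of the signalling genes, Sgk1 encodes a kinase that promotes sodium transport and is induced by both glucocorticoids and mineralocorticoids. It ran from 10.46 through a median of 10.92 to 11.10 on pregnant arrays, against 11.31, 10.88, 11.26 and 10.94 on non-pregnant replicates 1 to 4. Pregnant replicates 5 to 8 were below every non-pregnant array, and pregnant replicates 1 to 4 lay within the non-pregnant range. The change was -0.22 ± 0.13 (SE, 95% interval -0.50 to 0.06; adjusted p = 0.426).

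Promoter windows (RefSeq, GRCm38.p6) were at hand for 9 members, 18 in all, and none for Zbtb16, which was not searched. A promoter of Sgk1 is shown because it was the only 1 of these windows with a full glucocorticoid response element. It lies at chr10:21993640-21993939 on the plus strand, at 1 of 6 annotated Sgk1 starts. Capitals mark the element (AGAACANNNTGTTC), a near palindrome that was matched on both strands at overlapping positions.
Sgk1: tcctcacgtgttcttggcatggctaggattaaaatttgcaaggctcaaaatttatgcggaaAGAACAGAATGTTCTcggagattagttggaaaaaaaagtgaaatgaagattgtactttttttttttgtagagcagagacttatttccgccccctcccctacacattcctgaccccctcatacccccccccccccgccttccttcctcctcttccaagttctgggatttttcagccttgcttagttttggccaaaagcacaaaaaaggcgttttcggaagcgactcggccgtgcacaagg
Such an element was present in 16 of 32851 windows, or 0.0487%. The hexamer AGAACA was found in 3 Sgk1 windows and in 1 Tsc22d3 window, and in no window of the other 7 members searched. Elements farther from the start were not searched for, and no match in a window says nothing of the receptor.

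Errfi1 encodes Mig6, an inhibitor of the epidermal growth factor receptor. It ran from 10.60 through a median of 11.03 to 11.39 on pregnant arrays, against 11.29, 10.65, 11.20 and 11.35 on non-pregnant replicates 1 to 4. Pregnant arrays spread over the range of the non-pregnant ones, in which replicate 2 alone was low. The change was -0.12 ± 0.16 (SE, 95% interval -0.47 to 0.23; adjusted p = 0.774).

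The next question was whether the members differed among the pregnant females themselves. The labels number the arrays in sequence, with pregnant replicates 1 to 4 before the non-pregnant arrays and pregnant replicates 5 to 8 after them, and the sources do not say what these runs stand for. In a fit with 3 groups, 0 members and 0 of 18626 probes were called between the runs (limma), while 1311 probes, or 7.04%, had an unadjusted p under 0.05. Among lead probes of members this held for 1, Sgk1.

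Sgk1 was 11.10, 11.09, 10.98 and 11.02 on pregnant replicates 1 to 4, against 10.87, 10.84, 10.46 and 10.66 on replicates 5 to 8. The runs did not overlap, and the difference was 0.34 ± 0.13 (SE, 95% interval 0.07 to 0.62; adjusted p = 0.632). Errfi1 was 11.28, 11.39, 11.10 and 10.96 on replicates 1 to 4, against 10.71, 11.18, 10.60 and 10.79 on replicates 5 to 8. Here replicate 6 reached into the first run, and the difference was 0.36 ± 0.17 (SE, 95% interval 0.00 to 0.73; adjusted p = 0.713). Map3k6 was 6.49, 6.75, 7.52 and 7.36 on replicates 1 to 4, against 6.75, 6.60, 6.88 and 6.62 on replicates 5 to 8. Replicates 3 and 4 were above the second run and replicate 1 below it (difference 0.32 ± 0.19, SE, adjusted p = 0.808).

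Against the same 4 non-pregnant arrays, the 4 called genes had positive changes in both runs. Cdkn1a was higher by 0.99 ± 0.21 (SE, adjusted p = 0.0424) in replicates 1 to 4 and by 1.05 ± 0.21 (adjusted p = 0.0249) in replicates 5 to 8. Map3k6 was higher by 1.38 ± 0.19 (adjusted p = 0.00391) and 1.07 ± 0.19 (adjusted p = 0.0157) in the same runs. These 2 genes passed in each run in the 3-group fit, beside 0.596% of all probes called higher in the first and 0.736% in the second. Fitted without the other run, Cdkn1a no longer passed in replicates 1 to 4 (adjusted p = 0.0864). Fkbp5 gave 0.54 ± 0.13 (adjusted p = 0.0699) in replicates 1 to 4 and 0.44 ± 0.13 (adjusted p = 0.102) in replicates 5 to 8. Mt2 gave 0.55 ± 0.13 (adjusted p = 0.0671) and 0.53 ± 0.13 (adjusted p = 0.0611), so that neither gene passed with 4 pregnant arrays.

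The 6 uncalled members all had the smaller or more negative value in replicates 5 to 8. Of the called members, Fkbp5, Mt2 and Map3k6 also had the smaller value there, and Cdkn1a had the larger. The share of all probes with a smaller value there was not counted. Sgk1 gave -0.05 ± 0.13 in replicates 1 to 4 and -0.39 ± 0.13 (adjusted p = 0.145) in replicates 5 to 8. Klf9 gave -0.24 ± 0.12 and -0.41 ± 0.12 (adjusted p = 0.104). Errfi1, with 0.07 ± 0.17 and -0.30 ± 0.17, was the 1 member of 10 whose sign differed between the runs. The other uncalled members gave -0.01 (Mt1), 0.14 (Tsc22d3) and 0.25 (Zbtb16) in replicates 1 to 4, and in replicates 5 to 8 the values were -0.16 for Mt1 and 0.04 for both Tsc22d3 and Zbtb16. Both comparisons share their non-pregnant arrays, so that these values are not independent.

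**Figure D3:**
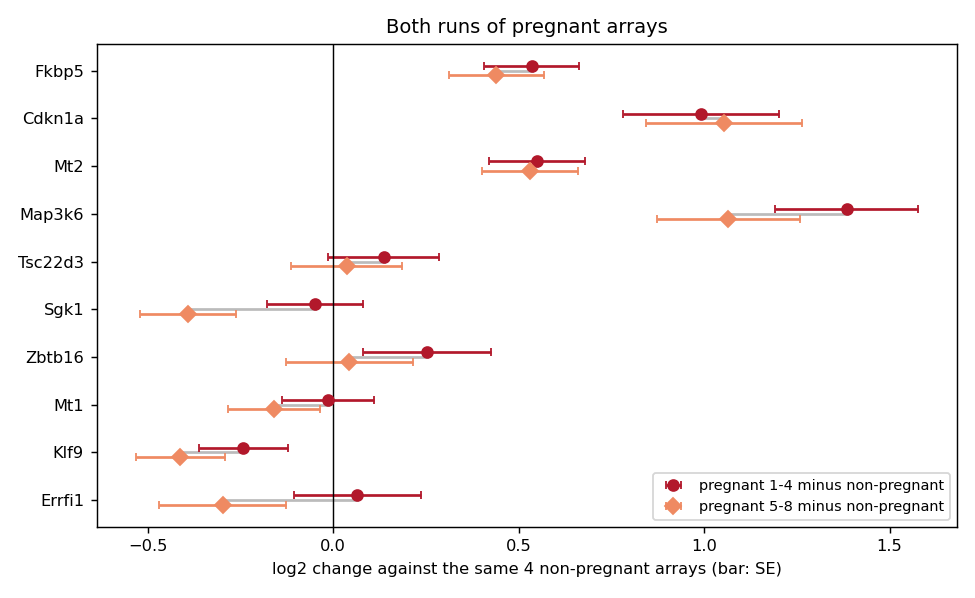
Log2 change (horizontal axis) of the lead probe of each member in pregnant replicates 1 to 4 (dark circles) and 5 to 8 (light diamonds), each minus the same 4 non-pregnant arrays; bars are SE from the 3-group fit. Cdkn1a and Mt2 nearly coincide, whereas Sgk1 and Errfi1 lie 0.34 and 0.36 apart.

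Taken array by array, the members followed several patterns. The mean deviation of the 10 lead probes from their means over 12 arrays ran from -0.04 to 0.28 on pregnant arrays and from -0.25 to -0.10 on non-pregnant arrays, and it is given with no test. Pregnant replicate 2 had the highest mean, with 9 of 10 members above their median. Pregnant replicate 7 was the lowest pregnant array, being lowest of all pregnant arrays for Tsc22d3, Sgk1, Zbtb16 and Errfi1 and highest for Cdkn1a. Non-pregnant replicates 1 and 3 were high for Tsc22d3 and Sgk1 while replicate 3 was the lowest array for Cdkn1a.

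**Figure D4:**
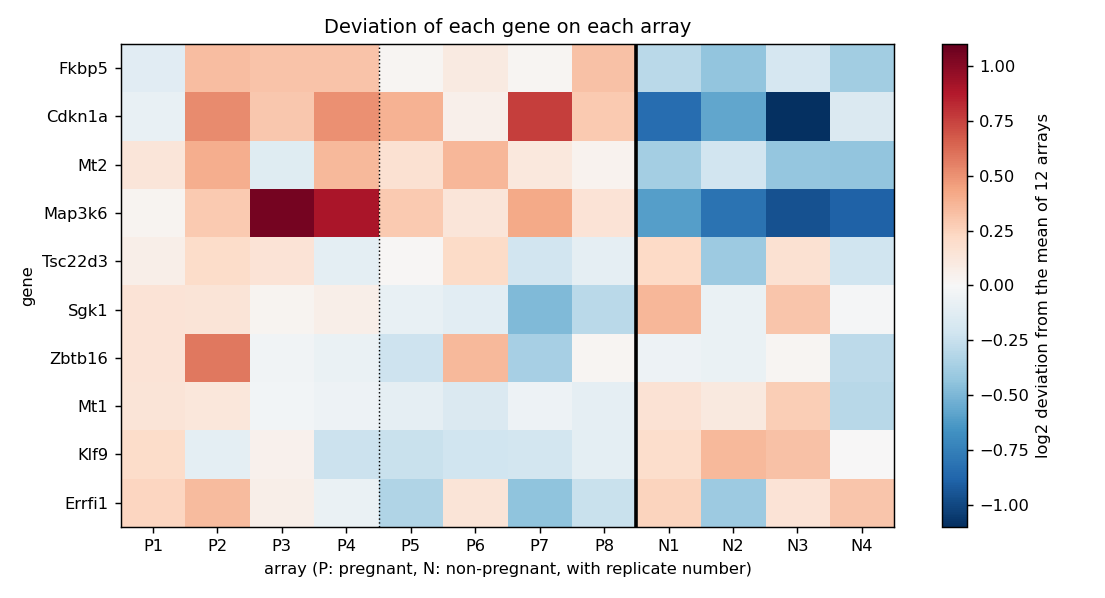
Log2 deviation (colour) of each member's lead probe from its mean over the 12 arrays, with pregnant arrays P1 to P8 left of the solid line and non-pregnant arrays N1 to N4 right of it; the dotted line parts the runs. Fkbp5, Cdkn1a, Mt2 and Map3k6 are low on all 4 non-pregnant arrays, and the remaining rows show no such division.

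Other genes of the pathway were read from lists. For the receptor's own machinery, the Nr3c1 probe (glucocorticoid receptor) was detected on 1 pregnant and 1 non-pregnant array and was not kept. The kept Nr3c2 probe (mineralocorticoid receptor) was detected on 3 pregnant and 2 non-pregnant arrays, with a change of 0.22 ± 0.25 (SE, adjusted p = 0.710 in limma). Another Nr3c2 probe was detected on 0 pregnant and 0 non-pregnant arrays and was not kept. Of 10 measured genes for local steroid enzymes, chaperones and the receptors, 0 were called and 1 had an unadjusted p under 0.05. That gene was Hsd11b1, whose product regenerates active glucocorticoid inside cells, at 10.55 ± 0.16 (SD, n = 8) in pregnant females and 10.95 ± 0.09 (SD, n = 4) in virgin females. Its groups did not overlap, and the change of -0.39 ± 0.10 (SE, adjusted p = 0.0615) fell just short. Hsd11b1 passed as lower in 7 of 13 alternative settings, among them the authors' processed table (limma, adjusted p = 0.0247). Stip1, the adaptor between Hsp70 and Hsp90, gave 0.28 ± 0.14 (adjusted p = 0.339). Of 6 receptor coregulators, 0 were called and 1 had an unadjusted p under 0.05, Nrip1, which gave -0.51 ± 0.20 (adjusted p = 0.204).

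Of 21 measured targets of the hormone outside the member set, 1 was higher and 1 lower, with a median change of -0.17. At an unadjusted p under 0.05 there were 9 of the 21, beside 17% of all kept probes, with 3 above 0 and 6 below. Sult1a1, which encodes a phenol sulfotransferase, was higher, at 9.65 ± 0.17 (SD, n = 8) in pregnant females and 8.93 ± 0.21 (SD, n = 4) in virgin females (change 0.71 ± 0.12, SE, adjusted p = 0.00499). Rasd1, a small G protein gene first found as dexamethasone-induced in mouse corticotroph cells, was lower, at 7.49 ± 0.33 (SD, n = 8) against 8.33 ± 0.45 (SD, n = 4). Its change of -0.84 ± 0.20 (SE, adjusted p = 0.0375) no longer passed when any 1 of 7 arrays was left out (pregnant replicate 2, 3, 4, 6 or 7 or non-pregnant replicate 1 or 3; adjusted p up to 0.147). The related factors Cebpd and Cebpb gave opposite signs, 0.45 ± 0.13 (adjusted p = 0.0742) and -0.40 ± 0.12 (adjusted p = 0.0852). Of 4 measured corticotroph genes that the hormone represses, 0 were called and 1 had an unadjusted p under 0.05, and Pomc gave -0.03 ± 0.10 (adjusted p = 0.911).

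The other routes that induce members were also read. Of 6 measured genes of zinc and metal handling, 0 were called in limma and 0 had an unadjusted p under 0.05, with values of 0.56 ± 0.42 (SE) for the metallothionein gene Mt3 and -0.37 ± 0.20 for Gclc, which encodes a subunit of the enzyme that starts glutathione synthesis. Of 8 measured p53 targets other than Cdkn1a, 1 was called higher, Ccng1 (cyclin G1), which is named here after its values were seen. Its 3 probes disagreed: the called one gave 0.56 ± 0.12 (adjusted p = 0.0249), the brightest 0.04 ± 0.12 (adjusted p = 0.907) and the third 0.41 ± 0.17 (adjusted p = 0.227). Gadd45a, a p53 target of the stress response, gave 0.32 ± 0.14 (adjusted p = 0.274).

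Of 7 measured feedback inhibitors of growth factor signalling, the class to which Errfi1 belongs, 0 were called and 2 had an unadjusted p under 0.05. These were the MAP kinase phosphatase genes Dusp6, with -0.42 ± 0.11 (SE, adjusted p = 0.0656), and Dusp4, with -0.84 ± 0.26 (adjusted p = 0.109). Of 9 measured family relatives of members, 0 were called and 1 had an unadjusted p under 0.05. The p57 gene Cdkn1c, a relative of Cdkn1a, gave -0.35 ± 0.16 (adjusted p = 0.270), and Sgk3 gave 0.20 ± 0.10 (adjusted p = 0.335).

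Genes of other kinds moved with pregnancy on the same arrays. Of 22 measured immediate early genes, which respond to stimulation within minutes, 0 were higher and 8 lower, and their mean deviation ran from -0.66 to 0.14 on pregnant arrays and was 0.92, -0.03, 1.31 and 0.49 on non-pregnant replicates 1 to 4. Without non-pregnant replicate 1 or 3, highest for this list, the Fkbp5 and Mt2 calls ended, and the count of calls over all probes also fell. The Fkbp5 call ended likewise without non-pregnant replicate 2, the lowest of its group for this list. Of 5 measured red blood cell genes, 5 were higher, with a mean deviation of 0.14 to 1.44 on pregnant and -1.51 to -1.09 on non-pregnant arrays. Of 3 measured corticotroph markers, 0 were called in limma and 0 had an unadjusted p under 0.05, with a mean deviation of -0.17 to 0.13 on pregnant and -0.04 to 0.17 on non-pregnant arrays. Of the 12 lists of cell type markers read, 9 held no called gene (endothelial, fibroblast, stem and folliculostellate, posterior lobe and most hormone cell types among them). In the remaining lists Lyz2 was lower among macrophage markers and Lhb among gonadotroph markers, each as the 1 called gene of its list. Lyz2 was called by a dimmer probe (-1.05 ± 0.24, SE, adjusted p = 0.0337 in limma). Its brightest probe did not pass, at -0.87 ± 0.23 (adjusted p = 0.0608). At an unadjusted p under 0.05 in limma, the counts were 3 of 3 somatotroph, 3 of 4 thyrotroph and 4 of 5 gonadotroph markers. They were 2 of 4 for stem and folliculostellate, 3 of 6 for macrophage and 1 of 7 for endothelial markers. The genes so counted in the stem and folliculostellate, macrophage and endothelial lists were all lower in pregnant females. Fibroblast, posterior lobe, lactotroph and melanotroph lists had 0, the last measured by Pomc alone. The share over all kept probes was 17%, and signs were mixed in the somatotroph, thyrotroph and gonadotroph lists. The part of these lists, and of raw brightness, in the changes of the members was not tested.

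The calls differed in how far they rested on single arrays. Cdkn1a and Map3k6 passed whichever array was left out, with an adjusted p of at most 0.0369 and 0.0135. These fits kept the same 18626 probes, so the detection filter was not varied in them. Map3k6 met that filter only through the pregnant arrays, its lead probe being detected on 8 pregnant arrays and 1 non-pregnant array. With 1 array removed the number of members called was 2 to 4, being 2 without non-pregnant replicate 1 or 3, where Cdkn1a and Map3k6 were left. It was 3 without pregnant replicate 4, pregnant replicate 8 or non-pregnant replicate 2, where the call of Fkbp5 ended.

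**Figure D5:**
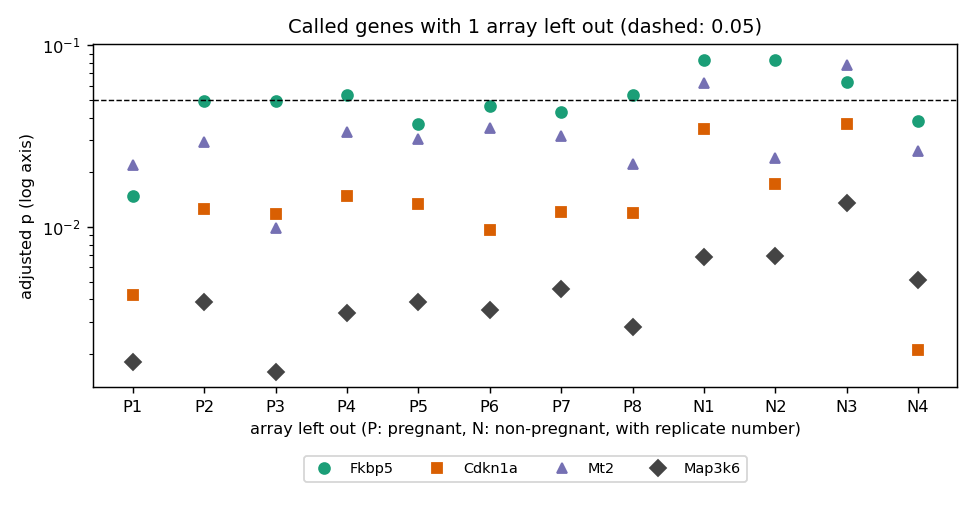
Adjusted p (vertical, log axis) of the lead probes of Fkbp5, Cdkn1a, Mt2 and Map3k6 with each array left out in turn (horizontal axis, P for pregnant and N for non-pregnant); the dashed line is 0.05. Cdkn1a and Map3k6 stay below the line throughout, and Fkbp5 reaches 0.0834 and Mt2 0.0783. The probes tested are those of the main fit, whose detection filter Map3k6 met only through pregnant arrays.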

How the data were processed

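Total RNA from 12 whole pituitaries was hybridised to Illumina MouseWG-6 v2.0 arrays. The authors deposited non-normalised intensity values and, beside each, a detection p-value. Their processed table, made with lumi, for which no version was stated, and holding linear intensity values, was an alternative only. The normexp model of limma 3.58.1 (R 4.3.3), with an offset of 16 and negative controls inferred from detection p-values, was followed by quantile normalisation and log2. Two-sided tests used lmFit and eBayes with Benjamini-Hochberg adjustment over 18626 probes; a gene was called when at least 1 probe had an adjusted p under 0.05 and a log2 change of at least 0.32 either way. Context lists were described by their brightest probe per gene and the named genes are members, the corticosteroid receptors and up to 4 genes of smallest p per list. Members and lists were chosen with earlier results of these data known, and some lists share genes. In simulated data on 18626 probes for this comparison, 90% of 2-fold and 51% of 1.5-fold changes were called, with 8 false calls among 149. The number of arrays limits the precision, and animals were treated as independent. Promoter windows came from RefSeq (GRCm38.p6).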

Additional observations from a re-analysis of the deposited data

Results flagged for a closer look

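Of 62 groups of 4 or 8 arrays tested for an array far from its group (Dixon's criterion, which chance meets in about 5% of groups), 2 were met, and 0 of these concerned a member. Dusp6 was 10.11 on pregnant replicate 5, with the next pregnant array at 9.83. The called Ccng1 probe was 8.59 on non-pregnant replicate 4, with the next non-pregnant array at 8.14.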

How the results depend on the processing

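The count of members called was 4. It was 3 with no background correction (the Mt2 change fell just under the size required) and 3 with detection required on all 12 arrays, where Map3k6 was not tested; it was 5 with array weights (Klf9 added, lower), and 4 with a normexp offset of 50, the authors' processed table, no detection filter, detection p under 0.01, median scaling, cyclic loess, or trend and robust eBayes. Leaving out 1 array gave 2 to 4. With replicate number as a block (pregnant and non-pregnant replicates 1 to 4) it was 2, Cdkn1a and Map3k6. Without the block it was 1, Map3k6 (Cdkn1a adjusted p = 0.0864 in limma). The sources do not say whether the numbers pair the animals. Of the same-numbered pairs 2 of 4 correlated above 0.1, and 1 of 4 pregnant arrays correlated best with its own number. With 4 arrays per group these values cannot decide whether the animals are paired. Pregnant replicates 5 to 8 alone gave 2.

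Over all probes 431 were called. Array weights gave 1576, the block 127, pregnant replicates 1 to 4 alone 95 and replicates 5 to 8 alone 239, and leaving out 1 array gave 149 (without non-pregnant replicate 3) to 1133 (without non-pregnant replicate 4), with 183 without non-pregnant replicate 1 and 285 without pregnant replicate 7. The cause was not tested. Between the pregnant runs the count of members was 0 in each setting run.

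Changes of sign were confined to values that did not pass. Tsc22d3 gave -0.0312 with array weights and -0.0280 (without non-pregnant replicate 2) to 0.178 with 1 array left out, and its second probe -0.0243 with array weights and -0.00526 (without non-pregnant replicate 1) to 0.263. Errfi1 gave 0.0653 in pregnant replicates 1 to 4, with the replicate block or without it. Pomc gave 0.0170 with median scaling, 0.0433 in pregnant replicates 5 to 8 alone and -0.0614 to 0.00473 (without pregnant replicate 2) with 1 array left out. Slide and scan as a block were not run, since the file headers give neither. Faint probes, those of Map3k6 above all, have uncertain sizes of change.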
